A study of Mus musculus with 10 samples.

Results

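The 6 mouse miRNA hairpins mmu-mir-34a, mmu-mir-34b, mmu-mir-34c, mmu-mir-449a, mmu-mir-449b and mmu-mir-449c were followed in the small RNA of mature sperm. They were chosen by name as the miR-34 and miR-449 hairpins, and are 6 of the 1136 miRNA hairpins and of the 1470 small RNA features listed in any sample. A hairpin is the stem-loop precursor from which Dicer cuts the mature miRNA of about 22 bases, 1 from each arm (5p and 3p). The read counts were given per hairpin, so the arms could not be told apart.

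A mature miRNA guides Argonaute to mRNAs mainly through its seed, bases 2 to 8 from its 5′ end, and lowers their stability and translation. The miR-34 and miR-449 hairpins give 5p miRNAs that share a seed and are therefore grouped as a family. Mir34a is a well known p53 target made in many tissues, whereas the Mir34b/c and Mir449 clusters are abundant in meiotic and later male germ cells and in multiciliated epithelium, such as that of the airway, oviduct and efferent ducts. Mice that lack both of these clusters are infertile, with defects of spermatogenesis and of motile cilia.

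Sperm came from C57BL/6J males, with no genetic change named, given a control diet with 10% of kcal from fat (CD-F0) or a high-fat diet with 42% (HFD-F0) from 4 weeks of age. It was taken from the tail of the epididymis and the vas deferens, and 5 samples were sequenced in each group. Whether a sample was the sperm of a single mouse was not stated, so a p-value measures the spread between these samples.

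The sequences show what the family members share. The 4 mature 5p miRNAs listed in the RefSeq table for the mouse (GRCm38.p6) are printed 5′ to 3′ with the seed in capitals, because the common seed is what defines the family:
mmu-miR-34a-5p: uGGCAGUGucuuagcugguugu
mmu-miR-34b-5p: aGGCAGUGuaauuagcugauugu
mmu-miR-449a-5p: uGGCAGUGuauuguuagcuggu
mmu-miR-449c-5p: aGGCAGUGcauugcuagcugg
mmu-miR-34c-5p and the mature miRNAs of mmu-mir-449b are not printed here. All 4 of the printed miRNAs carried the seed GGCAGUG, and none of the other mature sequences among the 1679 names in that table carried it. mmu-miR-34c-5p and the mature miRNAs of mmu-mir-449b were not among those names, so their seeds were not compared. Counted from 1 at the 5′ end and compared without gaps, mmu-miR-449a-5p and mmu-miR-449c-5p had the same base at 18 of 21 positions, and differed by U1A, U9C and U14C with the base of mmu-miR-449a-5p first. mmu-miR-34a-5p and mmu-miR-449a-5p had the same base at 15 of 22 positions.

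The 3p miRNAs are shown because their seeds split the family, so that a hairpin count holds 2 kinds of mature sequence:
mmu-miR-34b-3p: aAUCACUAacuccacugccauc
mmu-miR-34c-3p: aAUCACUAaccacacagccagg
mmu-miR-34a-3p: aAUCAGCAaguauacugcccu
mmu-miR-449a-3p: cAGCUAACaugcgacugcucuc
mmu-miR-449c-3p: cAGUUGCUagcugcacuacccu
The seed AUCACUA was shared by mmu-miR-34b-3p and mmu-miR-34c-3p. The other 3 had a seed of their own.

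The 6 hairpins lie at 3 places in GRCm38.p6. Mir34a is on the plus strand of chromosome 4 from 150068454 to 150068555, where its 3′ end overlaps an exon of the predicted gene Gm37795 on the same strand. Mir34c (51103034 to 51103110) and Mir34b (51103562 to 51103645) span 612 bases on the minus strand of chromosome 9, within an intron of Btg4, which is read from the plus strand. Mir449c (113035983 to 113036091), Mir449b (113037419 to 113037498) and Mir449a (113037534 to 113037624) span 1642 bases on the plus strand of chromosome 13. They lie within introns of Cdc20b, which is read from the same strand.

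The libraries held 29558751 to 32178088 clean reads, and 64.9% to 75.2% of these matched the mouse genome, with the lowest share in CD-F0 replicate 1. miRNA hairpins took 14.5% to 23.5% of the clean reads, least in HFD-F0 replicate 5 and most in HFD-F0 replicate 1. RPM below is the reads of a hairpin divided by the clean reads of its library and scaled to reads-per-million, and every read of the 6 hairpins matched the genome. Of 21 X-linked miR-506 family hairpins, which are typical of the testis, 20 were listed. miRNAs known from somatic cells were counted as well, and whether their reads came from such cells was not tested. mmu-mir-143, a smooth muscle miRNA, stood at 25077 ± 3255 RPM in CD-F0 and 27437 ± 7690 RPM in HFD-F0 (SD, n = 5 each), above every hairpin of the family, and mmu-mir-451a, a red cell miRNA, stood at 1122 ± 439 and 964 ± 542 RPM. The share of somatic RNA in the levels below was not tested, and in such bulk samples fewer cells of a type and less RNA per cell cannot be told apart.

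The family was among the abundant miRNAs of these sperm. Summed over the 6 hairpins it took 12451 ± 918 RPM in CD-F0 and 11252 ± 3092 RPM in HFD-F0, and 6.65% of all miRNA reads. The 5 CD-F0 samples held 11305, 13397, 12832, 13067 and 11655 RPM, and the 5 HFD-F0 samples 16297, 9456, 11539, 8213 and 10753 RPM. The HFD-F0 samples reached both above and below the CD-F0 range, and their coefficient of variation was 27.5%, against 7.37% in CD-F0. The highest sum belonged to HFD-F0 replicate 1, the library richest in miRNA. As a share of miRNA reads, the family took 7.39% ± 0.797 in CD-F0 and 6.04% ± 1.25 in HFD-F0. A sum over chosen hairpins was not tested.

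Levels of neighbouring hairpins differed beyond their spread in 4 of the 5 pairs formed by the order of mean RPM. RPM is not scaled to length, and the mature products are of nearly the same length. The ratios compare reads. How evenly adapter ligation and PCR took up the different miRNAs was not tested, so the p-values do not speak of amounts of RNA. The hairpin mmu-mir-449a was the highest and ranked 3 among all miRNA hairpins, mmu-mir-34b ranked 15, mmu-mir-34c 21 and mmu-mir-34a 60. mmu-mir-449c and mmu-mir-449b ranked 409 and 411. Within each sample, mmu-mir-449a exceeded mmu-mir-34b by 2.43-fold on geometric mean (range 1.27 to 4.28, higher in 10 of 10 samples), with an exact two-sided sign-flip permutation p of 0.00195, the smallest that 10 samples allow (Benjamini-Hochberg over 5 neighbouring pairs, 0.00326). mmu-mir-34c exceeded mmu-mir-34a by 2.94-fold, and mmu-mir-34a exceeded mmu-mir-449c by 381-fold, both in 10 of 10 samples and with the same p. mmu-mir-34b and mmu-mir-34c were close, at a ratio of 1.16 (0.916 to 1.65), with mmu-mir-34b higher in 8 of 10 samples (exact p = 0.0234, adjusted 0.0293). This call was lost in 6 of the 10 runs that left out a sample, namely CD-F0 replicate 1 or 3 or HFD-F0 replicate 1, 2, 4 or 5, with an adjusted exact p of up to 0.0586. mmu-mir-449c and mmu-mir-449b did not differ beyond their spread, at a ratio of 0.990 (0.488 to 2.23, exact p = 0.963).

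**Figure D1:**
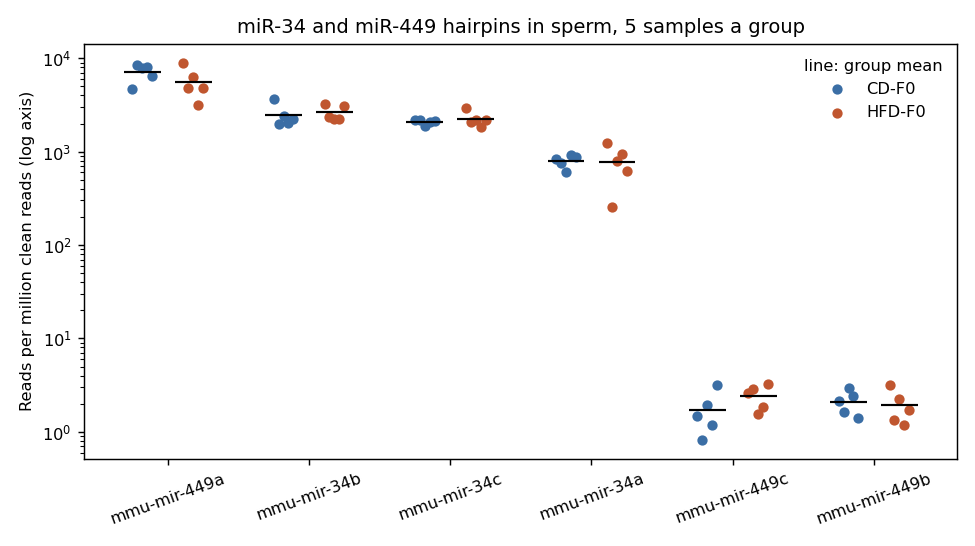
Level of each hairpin in the 10 sperm samples, in RPM on a log axis, with 1 point per sample and a line at the group mean (5 CD-F0 in blue, 5 HFD-F0 in orange). mmu-mir-449a is highest, mmu-mir-449b and mmu-mir-449c lie between 0.823 and 3.21 RPM, and the groups overlap for all 6 hairpins.

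The Mir449 cluster was uneven, with nearly all of its reads from mmu-mir-449a. This hairpin held 4632, 8498, 7935, 8049 and 6420 RPM in CD-F0 and 8934, 4804, 6285, 3179 and 4826 RPM in HFD-F0. The groups overlapped, with HFD-F0 replicate 1 the highest of all samples and CD-F0 replicate 1 the lowest in CD-F0. The means were 7107 ± 1589 and 5606 ± 2161 RPM, a ratio of 0.789 (exact two-sided permutation p = 0.262, where 5 against 5 samples can reach 0.00794).

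The 2 minor hairpins of the cluster were counted from few reads. mmu-mir-449b was counted from 37.7 to 100.3 reads in a library, and its lowest value, 1.18 RPM in HFD-F0 replicate 4, had a 95% Wilson interval of 0.867 to 1.63 RPM. Its means were 2.11 ± 0.619 RPM in CD-F0 and 1.93 ± 0.794 RPM in HFD-F0. mmu-mir-449c was counted from 26 to 99 reads, with means of 1.71 ± 0.906 and 2.43 ± 0.704 RPM (exact p = 0.198). Its lowest value, 0.823 RPM in CD-F0 replicate 2, had an interval of 0.562 to 1.21 RPM. These intervals cover counting error only. mmu-mir-449a made up 99.94% ± 0.020 of the cluster's reads in CD-F0 and 99.92% ± 0.019 in HFD-F0 (exact p = 0.0794, adjusted over 3 planned shares 0.119).

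The 2 hairpins of the Mir34b/c cluster had near equal reads. mmu-mir-34b held 3641, 1984, 2405, 2018 and 2244 RPM in CD-F0 and 3226, 2333, 2252, 2242 and 3101 RPM in HFD-F0. CD-F0 replicate 1 was the highest of all 10. mmu-mir-34c was the steadiest hairpin, with 2201, 2165, 1879, 2065 and 2115 RPM in CD-F0 and 2898, 2062, 2209, 1851 and 2207 RPM in HFD-F0. Its coefficient of variation was 6.05% in CD-F0 and 17.5% in HFD-F0, where replicate 1 stood highest. The mean of mmu-mir-34b was 2458 ± 683 RPM in CD-F0 and 2631 ± 490 RPM in HFD-F0 (exact p = 0.722), and that of mmu-mir-34c was 2085 ± 126 and 2245 ± 393 RPM (exact p = 0.5). mmu-mir-34b took 53.4% ± 5.87 of the cluster in CD-F0 and 53.9% ± 2.96 in HFD-F0, a difference of 0.449 percentage points (exact p = 0.905).

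The split between these 2 hairpins carries an uncertainty of counting. Their precursors share a stretch of 23 bases with no more than 1 mismatch, and the reads were aligned with 1 mismatch allowed, so a read of that stretch may fit both. Identical bases ran for at most 11 positions. In the other pairs compared, such a stretch was no longer than 13 bases. mmu-mir-449b was not among the hairpins compared.

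mmu-mir-34a, the member encoded alone, held 827, 748, 609, 932 and 871 RPM in CD-F0 and 1233, 253, 789, 939 and 614 RPM in HFD-F0. The HFD-F0 samples held both the highest and the lowest value, 4.87-fold apart. The means were 798 ± 125 and 765 ± 366 RPM (exact p = 0.873).

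None of the 6 hairpins passed the thresholds for a change with diet. In edgeR's quasi-likelihood test over all 814 features with enough reads, 0 of the 6 had both p at most 0.05 and a log2 fold change of at least 1 in size, where 30 of the 814 features did (3.69%), among them 15 of 529 miRNA hairpins (2.84%). At p at most 0.05 alone the count was again 0 of 6, against 10.2% of all features and 9.64% of miRNA hairpins, and DESeq2 also called 0 of 6 by either rule. The adjusted p was under 0.05 for 1 of the 814 features (0.123%), which is no member of the family. The RPM of the groups did not overlap for 0 of the 6 hairpins and for 32 of the 814 features (3.93%). The median log2 fold change was -0.11 over the 6 hairpins, -0.05 over all miRNA hairpins and -0.01 over all features.

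The hairpin nearest to a call was mmu-mir-449a, with a log2 fold change of -0.46 (SE 0.22, 95% interval -0.93 to 0.0066, edgeR adjusted p = 0.470 by Benjamini-Hochberg over 814 features). This value moved with single samples. Without CD-F0 replicate 1, the library with the lowest genome match, it was -0.56 (edgeR adjusted p = 0.332), and without HFD-F0 replicate 1 it was -0.64 (edgeR adjusted p = 0.194). In both of these the edgeR p before adjustment was under 0.05, as it was with all 10 samples when the fit held miRNA hairpins alone. Over the 10 fits that left out a sample the value ranged from -0.64 to -0.32, the weakest being that without HFD-F0 replicate 4. The fold change did not reach the fold threshold in any of the alternatives run. For mmu-mir-34c the interval was narrow, with a log2 fold change of -0.01 and bounds of -0.27 and 0.26, which leaves out a change of the size of the threshold in either direction. mmu-mir-34b had -0.02 (-0.47 to 0.43), and its sign and that of mmu-mir-34c turned when clean reads set the library size (0.10 and 0.11). Without CD-F0 replicate 1 the value of mmu-mir-34b was 0.21. mmu-mir-34a had -0.20 (-0.86 to 0.46) and mmu-mir-449b -0.26 (-0.91 to 0.39). Only the interval of mmu-mir-449c reached past a log2 fold change of 1, at 0.41 (-0.40 to 1.22, edgeR adjusted p = 0.768). Leaving out each sample, the value of mmu-mir-449c ranged from 0.19 without CD-F0 replicate 2 to 0.73 without CD-F0 replicate 5, and that of mmu-mir-449b from -0.46 without HFD-F0 replicate 1 to -0.14 without HFD-F0 replicate 4.

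**Figure D2:**
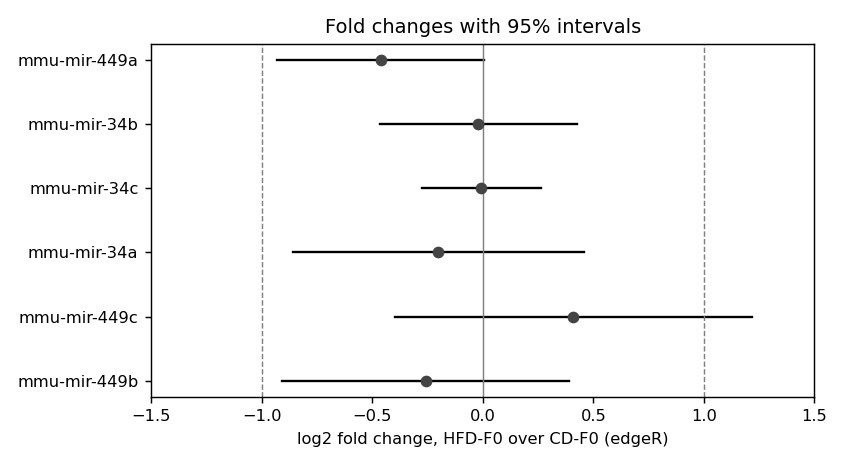
log2 fold change of each hairpin, HFD-F0 over CD-F0, from edgeR, with 1 point per hairpin, horizontal lines for the 95% intervals and dashed lines at the fold threshold. All 6 intervals include 0, and that of mmu-mir-449a ends closest to it, at 0.0066.

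The make-up of the family shifted in 1 of the 3 planned shares before correction. mmu-mir-34c took 19.5%, 16.2%, 14.6%, 15.8% and 18.1% of the family's reads in CD-F0 and 17.8%, 21.8%, 19.1%, 22.5% and 20.5% in HFD-F0. The HFD-F0 samples lay higher, with 3 of 5 above every CD-F0 sample. The means were 16.8% ± 1.94 and 20.4% ± 1.94 (exact permutation p = 0.0397), and the adjusted p over the 3 shares was 0.119, so the difference did not pass correction. mmu-mir-449a, the largest part of the sum, took 56.6% ± 9.29 in CD-F0 and 48.7% ± 6.89 in HFD-F0, and mmu-mir-34b took 20.1% ± 7.05 and 24.0% ± 4.26. These 2 shares were added after the values were seen and were not tested. CD-F0 replicate 1 had 41.0% mmu-mir-449a, below 4 of the 5 HFD-F0 samples.

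**Figure D3:**
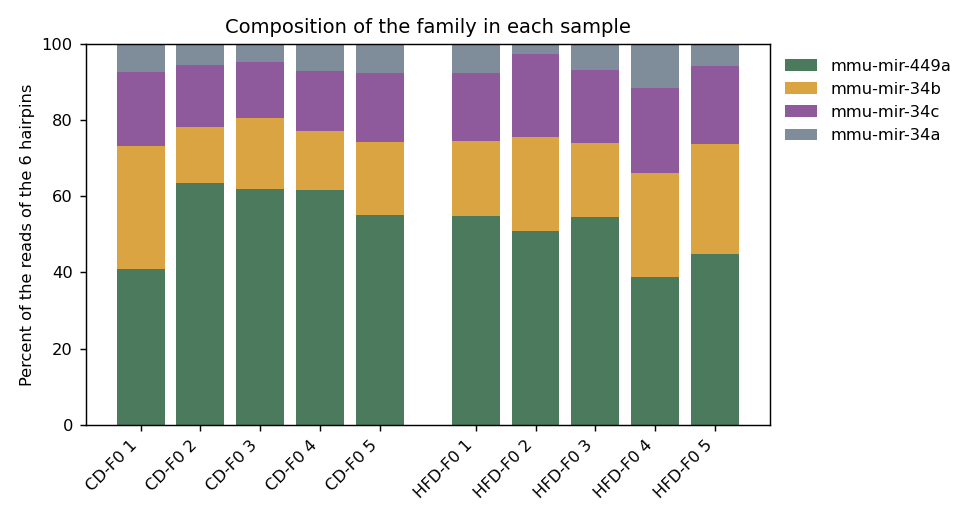
Percent of the family's reads from each hairpin in each of the 10 samples, as bars stacked to 100% (mmu-mir-449b and mmu-mir-449c are too few to be seen). The segment of mmu-mir-449a ranges from 38.7% in HFD-F0 replicate 4 to 63.4% in CD-F0 replicate 2.

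Hairpins of a cluster did not all vary together across the 10 samples. Of the 15 pairs, mmu-mir-449a and mmu-mir-449b, which lie next to each other, had the highest Pearson correlation of log2 RPM, r = 0.677 (permutation p = 0.0326, adjusted over 15 pairs 0.489), with Spearman's rho of 0.636. Without the 2 samples farthest from the median r was 0.383, but that cut also narrows the range. With group means subtracted r was 0.673, and without CD-F0 replicate 1 it was 0.747. The reads of mmu-mir-449b were not always whole numbers (65.83 in CD-F0 replicate 1), since a read that fits several hairpins was split between them. Whether reads shared with mmu-mir-449a enter this r was not tested. mmu-mir-34b and mmu-mir-34c gave r = 0.524 (permutation p = 0.117), and mmu-mir-449a and mmu-mir-34b gave -0.197. No pair passed the correction. The samples share a denominator, which acts on every pair.

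The level of mmu-mir-449a moved with that of the X-linked miR-506 family. Of 286 miRNA hairpins with a mean of at least 10 RPM outside the family, the pattern of mmu-mir-449a over the 10 samples was most like that of mmu-mir-471, a miR-506 family hairpin (r = 0.948), then mmu-mir-669m-1 (0.916) and mmu-mir-669m-2 (0.914), hairpins of a repeated rodent cluster. mmu-mir-34c was most like mmu-mir-425 (0.917), mmu-mir-467a-8 and mmu-mir-467a-9 (both 0.866), and mmu-mir-34b most like mmu-mir-342 (0.873), mmu-mir-130b (0.804) and mmu-mir-204 (0.802). mmu-mir-34a had weaker matches, with mmu-mir-25 (0.698), mmu-mir-181c (0.650) and mmu-mir-96 (0.641). By rank their order was reversed, with Spearman's rho of 0.309, 0.588 and 0.794. The r values of these matches were the highest of 286 for each hairpin and are given without a test.

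Against the summed level of the 20 listed miR-506 hairpins, mmu-mir-449a gave r = 0.887 (permutation p = 0.00022) and rho = 0.891 (p = 0.00149). Over the 20 relations between 4 hairpins and 5 marker lists, which were computed after the values were seen, the adjusted p was 0.0044 for r and 0.0298 for rho, and no other relation passed. It was 0.795 without the 2 samples farthest from the median, 0.914 with the group means subtracted, 0.852 with miRNA reads as the denominator, and 0.781 to 0.925 when each sample was left out. For mmu-mir-34c, r was 0.725 (permutation p = 0.0372, adjusted 0.322), 0.815 with the group means subtracted, 0.760 with miRNA reads as the denominator, 0.463 to 0.871 when each sample was left out, and -0.241 without the 2 samples. mmu-mir-34c also gave r = 0.685 with the germ cell list below and 0.639 with the epididymal epithelium list (adjusted permutation p = 0.322 for each). Without HFD-F0 replicate 1, r of mmu-mir-34c was 0.463 with the miR-506 hairpins, -0.042 with germ cell and 0.186 with epididymal epithelium miRNAs. For mmu-mir-34b, r with the summed miR-506 hairpins was 0.172, and -0.144 to 0.377 when each sample was left out. Other relations depended on the denominator. With miRNA reads, r of mmu-mir-34c with the smooth muscle list was -0.819, against 0.115 with clean reads. That of mmu-mir-34a with the blood and immune list was -0.814, against -0.528. The values with miRNA reads have no p. Whether the correlations of the hairpins differ from each other was not tested.

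**Figure D4:**
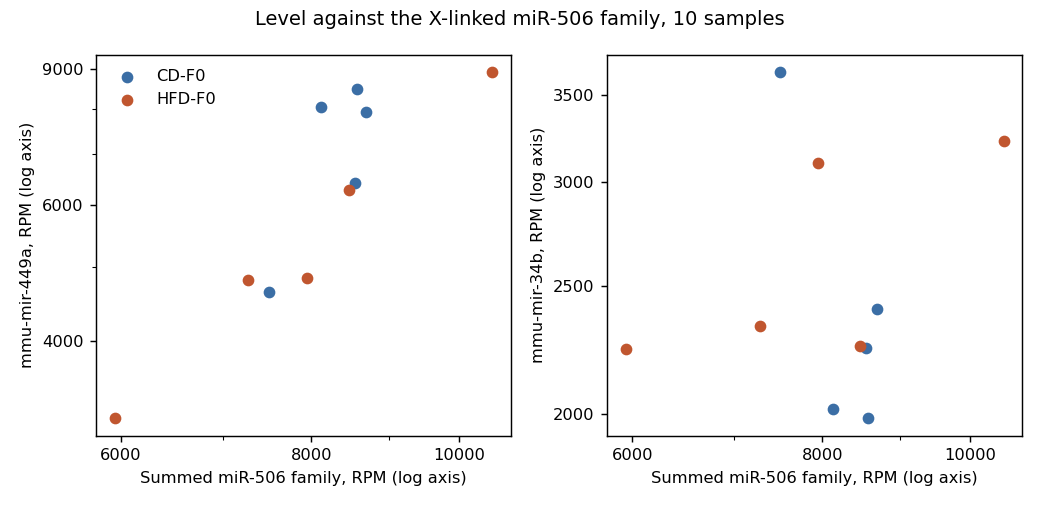
Level of mmu-mir-449a (left) and mmu-mir-34b (right) against the summed level of the miR-506 family in the 10 samples, both in RPM on log axes, with 1 point per sample. mmu-mir-449a rises with the miR-506 family from 3179 RPM in HFD-F0 replicate 4 to 8934 RPM in HFD-F0 replicate 1 (r = 0.887), and mmu-mir-34b gives r = 0.172.

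The other germ cell and somatic lists give the setting of these values. The summed miR-506 family held 8286 ± 488 RPM in CD-F0 and 8032 ± 1682 RPM in HFD-F0, and in edgeR 0 of its 20 tested hairpins were higher in HFD-F0 and 1 was lower at p at most 0.05 (mmu-mir-470, log2 fold change -0.51, edgeR adjusted p = 0.410), with a median of -0.08. At that threshold 4.91% of all miRNA hairpins were higher and 4.73% lower, and of all features 6.14% and 4.05%. Its most abundant hairpins, mmu-mir-465c-1 and mmu-mir-465c-2, are listed with the same values, at 1121 and 1044 RPM each. Of 12 tested germ cell miRNAs outside both families, 1 was higher at p at most 0.05 (mmu-mir-221, log2 fold change 0.73) and 2 were lower. These were mmu-mir-18a, at -0.41, and mmu-mir-383, the only one past both thresholds, at -1.91 with 3.97 ± 5.37 against 1.15 ± 0.722 RPM. After adjustment over all features none of these passed, the smallest edgeR adjusted p being 0.116 for mmu-mir-221. The most abundant of this list were mmu-mir-21a (12071 ± 1468 and 12079 ± 4592 RPM) and mmu-mir-191 (4737 ± 457 and 5239 ± 995 RPM). The summed list held 18377 ± 1439 RPM in CD-F0 and 19043 ± 5802 RPM in HFD-F0, most of it from these 2 miRNAs. It was drawn from background knowledge, and whether its reads came from germ cells was not tested. The list's median log2 fold change was -0.17.

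Of the epididymal epithelium list, 0 of 6 passed p at most 0.05 in edgeR, where 10.2% of all features and 9.64% of miRNA hairpins did. The median log2 fold change of the 6 was 0.29, with 0.09 for mmu-mir-200a and 0.14 for mmu-mir-429. The median was -0.05 over all miRNA hairpins and -0.01 over all features, and the 6 were not tested as a set. The summed level of this list ran from 3969 to 6756 RPM in CD-F0 and from 5520 to 9463 RPM in HFD-F0. Its most abundant miRNAs were mmu-mir-429 (2167 and 2597 RPM) and mmu-mir-200a (1490 and 1745 RPM). In the smooth muscle list 1 of 6 passed both thresholds, mmu-mir-145a (2.84% of all miRNA hairpins and 3.69% of all features did so), with 578 ± 199 RPM in CD-F0 and 1302 ± 780 RPM in HFD-F0 (log2 fold change 1.09, edgeR adjusted p = 0.293). The summed level of this list ran from 21352 to 29447 RPM and from 15876 to 36525 RPM, with a median log2 fold change of -0.02. Most of this sum came from mmu-mir-143. In the blood and immune list 1 of 6 was higher at p at most 0.05 (4.91% of miRNA hairpins and 6.14% of all features were), mmu-mir-223, with 362 ± 13.7 and 528 ± 57.8 RPM (log2 fold change 0.44, edgeR adjusted p = 0.225), and the summed level was 1953 ± 395 and 2152 ± 625 RPM, with a median log2 fold change of 0.23. No defining marker of these somatic lists was at 0 in group mean. Across the 10 samples mmu-mir-449a gave r = -0.257 with the epididymal epithelium list, -0.102 with smooth muscle and 0.061 with blood and immune miRNAs, none of which passed the correction. Single libraries moved these values. Without HFD-F0 replicate 1 the first was -0.768, and leaving out each sample it ranged from -0.768 to -0.108, with ranges of -0.440 to 0.223 for smooth muscle and -0.061 to 0.311 for blood and immune miRNAs. With miRNA reads as the denominator the 3 values were -0.452, -0.554 and -0.116.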

How the data were processed

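Small RNA was sequenced from 5 HFD-F0 and 5 CD-F0 sperm samples. Clean reads were assigned by the authors to the genome (mm10 per the labels) and to RNA databases in SPORTS, which runs Bowtie, with 1 mismatch allowed. They deposited estimated counts per feature and sample, in which a read that fits several hairpins is split between them. Versions, and whether molecular identifiers were collapsed, are not given in the sources used here. Genome-matched and unmatched reads were added, divided by clean reads for RPM, and rounded for edgeR 4.0.16 (R 4.3.3, filterByExpr, TMM, quasi-likelihood test on group, all features). A call was p at most 0.05 with a log2 fold change of at least 1 in size, the thresholds of the study. DESeq2 1.42.0 was an alternative, with other filters, library sizes, a replicate block and leave-one-out. Correlations used log2(RPM + 0.1) and 100000 permutations, exact tests ran over 252 assignments, and ratios within a sample had 0.5 reads added. Depth was 29558751 to 32178088 clean reads, and no 2 libraries agreed within sampling noise. Scripts were tested on simulated data. Overlapping genes came from GENCODE M21.

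The text names all 6 hairpins, the 3 hairpins most like each of those with at least 10 RPM, and from each marker list the 2 most abundant members and those past both thresholds. mmu-mir-18a, mmu-mir-221, mmu-mir-223 and mmu-mir-470 were named after their values were seen. The members and lists were chosen with earlier results of these data known. A planned test of unmatched reads was void, since the 6 hairpins had 0. mmu-mir-469, mmu-mir-509 and mmu-mir-142 of the marker lists were not analysed here.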

Additional observations from a re-analysis of the deposited data

Results flagged for a closer look

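Of 26 sets of 5 samples examined, 2 held a sample far from the others, both for mmu-mir-34b in CD-F0 replicate 1. About 1 in 20 such sets is flagged by chance, and the 2 are not independent. mmu-mir-34b stood at 3641 RPM in this sample, and the nearest CD-F0 sample held 2405 RPM, a gap of 0.746 of the group's range, above Dixon's 95% critical value for 5 samples. As a share of the family, mmu-mir-34b took 32.2% in this sample and 19.3% in the nearest, a gap of 0.745 of the range. The same library had the lowest share of genome-matched reads, 64.9%, and the lowest mmu-mir-449a of the CD-F0 samples. The part of the genome-matched share in these values was not tested.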

How the results depend on the processing

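Of 271 recomputed values, 237 kept their direction and their side of the threshold or, for counts, stayed within 1.5 times, and no alternative moved any of the 6 hairpins past both thresholds. Some of the 237 could not have changed. The 6 hairpins had 0 unmatched reads, so genome-matched reads gave the same shares and the same ratios of neighbouring pairs. A replicate block alters the p of a log2 ratio of mean RPM but not the ratio itself. The near-zero changes turned sign. With clean reads as the library size, the log2 fold change was 0.10 for mmu-mir-34b and 0.11 for mmu-mir-34c, and the median of all features was 0.09. With miRNA features alone they were 0.052 and 0.055, and mmu-mir-449a, at -0.42, had an edgeR p under 0.05 before adjustment and an adjusted p of 0.411. Without the count filter mmu-mir-34c was at 0.0028. With miRNA reads as the denominator the log2 ratios of mean RPM were -0.0083 for mmu-mir-34b and -0.026 for mmu-mir-34c. The causes were not tested.

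Leaving out each sample in turn, the edgeR log2 fold change ranged from -0.39 to 0.014 for mmu-mir-34a, from -0.14 to 0.21 for mmu-mir-34b and from -0.085 to 0.053 for mmu-mir-34c. The log2 ratio of mean RPM ranged from -0.30 to 0.16 for mmu-mir-34a, from -0.0016 to 0.17 for mmu-mir-34c and from -0.38 to 0.019 for mmu-mir-449b. The difference in the share of mmu-mir-34b in its cluster ranged from -0.957 to 2.67 percentage points. The share of mmu-mir-34c in the family stayed higher by 2.97 to 4.17 points, but its exact permutation p rose to 0.0794 without CD-F0 replicate 2, 3 or 4 or HFD-F0 replicate 2, 4 or 5. The share of mmu-mir-449a in its cluster differed by -0.0306 to -0.0182 points, and its exact p reached 0.0476 without HFD-F0 replicate 3. Of the 5 neighbouring pairs, 3 to 4 differed, and 3 in 6 of the 10 runs, where mmu-mir-34b and mmu-mir-34c no longer passed. Pairs of hairpins with r of at least 0.6 in size, a limit chosen after the values were seen, numbered 1, and 2 with group means subtracted or with genome-matched reads.

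Over all features 30 were called, 93 without the count filter, 19 with at least 10 reads in every sample, and 22 to 50 leaving out a sample. Samples with the same replicate number deviated together in only some cases (r from -0.27 to 0.28, best partner in 2 of 5). This was not tested, and 5 numbers are too few to settle whether they mark pairs. With a replicate block, mmu-mir-34b was at 0.021, and 25 of the 814 features and 0 of the 6 hairpins were called. mmu-mir-449b and mmu-mir-449c were counted from at most 100.3 reads in a library.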
